A study of Mus musculus with 12 samples.

Results

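Transcripts of 10 genes of the integrated stress response were followed in the spinal cord of MFN2 and WT mice: Atf4, Atf5, Ddit3, Trib3, Asns, Chac1, Psat1, Phgdh, Mthfd2 and Sesn2. They were taken from a fixed list of symbols, matched to the Ensembl genes of the deposited counts, and all 10 were found among 49548 genes. Each is a known target of this response or one of its transcription factors. Levels are given as CPM, the counts relative to library size after TMM scaling, and the question was whether the 10 genes are higher in MFN2 cord.

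The 8 MFN2 mice were hemizygous for a transgene of human MFN2 with the R94Q mutation on a B6;D2 background (transgene Tg(Eno2-MFN2*R94Q)L51Ugfm/J, labelled CMT2A). The rat Eno2 promoter drives the transgene mainly in neurons, and the mice keep both of their own Mfn2 copies. The 4 WT mice are labelled C57BL/6, while the study's methods call them littermates. All 12 mice were untreated and 30 days old, and 1 bulk library was made from the lumbar cord of each. The MFN2 libraries held 19359454 to 26738930 counts and the WT libraries 19453238 to 23564568. The human transgene was not analysed here. Mouse Mfn2, which does not check the genotype labels, was at 206 ± 12.8 CPM (SD, n = 8) in MFN2 and 213 ± 15.2 CPM (SD, n = 4) in WT libraries, with a log2 fold change of -0.05 (edgeR with Benjamini-Hochberg adjustment, FDR = 0.733). Eno2, whose rat promoter was used, was at 537 ± 37.7 CPM (SD, n = 8) and 585 ± 38.7 CPM (SD, n = 4).

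The integrated stress response begins with kinases that phosphorylate the translation initiation factor eIF2. General translation then slows, while the messenger RNA of the transcription factor ATF4 is translated more, through short reading frames upstream of its coding sequence. ATF4 switches on genes for amino acid synthesis and uptake, for one-carbon metabolism and for its own feedback. In tissues with mitochondrial dysfunction these target transcripts are known to rise, often together with the secreted factors FGF21 and GDF15. ATF4 is controlled mainly through its translation, which counts of transcripts do not measure.

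Libraries are named by their numbers, which fall in 2 runs. MFN2 libraries 41 to 43 and WT libraries 44 to 47 form the first run, and MFN2 libraries 72 to 76 the second. No WT library belongs to the second run, so that genotype and number run cannot be told apart there. Library 43 stood apart from all others. Its 8 forebrain markers, of which Camk2a was the most abundant, summed to 4685 CPM against 109 to 207 CPM in the other 11 libraries. Its 7 caudal Hox genes, which mark cord segments, summed to 40.9 CPM against 223 to 290 CPM, and its 7 motor neuron markers to 362 CPM against 1764 to 3178 CPM. The label of spinal cord thus went against the markers in this library. Values without it are given beside each tested member's result over all libraries, and beside only some results of the single runs. Within each genotype no pair of libraries held matching counts.

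The promoters of the members were read for the binding element of ATF4, because it is the sequence through which ATF4 is known to act on its targets. The letters TGATGNAA, the core of the C/EBP-ATF response element, were searched on both strands from 250 bases before to 50 bases after each start. RefSeq promoters on GRCm38.p6 were matched for all 10 members. The element was found in the promoters of 3 of them, Trib3, Asns and Chac1, and in 3.97% of all 32851 promoters. The cAMP response element TGACGTCA, which shares no match with it, was in 0 of the members' promoters and in 1.79% of all promoters. The 3 matches are written here on the strand of each gene, 5′ to 3′, with the matching letters in capitals. They lie at chr2:152344028-152344057 (minus strand) for Trib3, chr6:7693214-7693243 (minus strand) for Asns and chr2:119351038-119351067 (plus strand) for Chac1.
Trib3: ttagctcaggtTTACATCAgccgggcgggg
Asns: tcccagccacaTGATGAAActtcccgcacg
Chac1: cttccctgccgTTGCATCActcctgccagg

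Distances are counted from the RefSeq starts. In Asns the element reads along the gene, 23 bases before that start. In Trib3 and Chac1 it reads along the opposite strand, 14 bases after and 193 bases before that start. The RefSeq starts differ from those in the gene coordinates given below, which come from GENCODE. By the GENCODE coordinates the element lies inside Asns, before the start of Trib3 and before the start of Chac1. A match of these letters is a description of the window. The absence of a match in the other members' windows says nothing about binding elsewhere.

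The members covered a wide range of levels. Per length of transcript, as RPKM, Atf4 and Psat1 were highest in WT cord, at 29.3 ± 1.28 and 29.3 ± 3.70 RPKM (SD, n = 4). Asns and Phgdh followed at 19.9 ± 1.77 and 18.1 ± 4.36 RPKM, and their ranges overlapped. Ddit3 was at 7.82 ± 0.322 RPKM, apart from its neighbours in the order. Mthfd2, Atf5 and Sesn2 lay between 3.80 and 5.31 RPKM on average, each overlapping the next. Chac1 stood at 2.93 ± 0.172 RPKM and Trib3 at 0.159 ± 0.0949 RPKM. In MFN2 cord the first 6 kept this order, with Atf4 at 31.7 ± 2.21 and Psat1 at 22.7 ± 4.87 RPKM (SD, n = 8), while Chac1, Sesn2 and Atf5 followed at 3.54, 3.52 and 3.06 RPKM with overlapping ranges.

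Over all libraries, no member passed the test in either direction. Of the 9 members that passed the filter on low values, 0 reached an FDR of 0.05 by edgeR (quasi-likelihood test, Benjamini-Hochberg adjustment), as did 0% of the 15942 genes tested. With DESeq2 and with limma the count of members was 0 as well. At an unadjusted p under 0.05, 1 member was higher in MFN2 cord (Chac1) and 2 were lower (Atf5 and Psat1), where 7.4% of all genes were higher and 7.57% lower. The log2 fold change was above 0 for 2 of the 9 members and for 50.8% of all genes. The median of the members was -0.11 and that of all genes 0.00375. Set against the question, a rise of these genes was thus not detected in MFN2 cord. Bulk libraries do not resolve a rise confined to neurons, where the transgene is mainly driven. The 95% intervals of the fold changes bound a rise in the bulk libraries from above. The upper limits were 0.971-fold for Psat1, 0.977-fold for Atf5, 1.04-fold for Phgdh and 1.05-fold for Ddit3. They were 1.10-fold for Asns and Sesn2, 1.19-fold for Atf4, 1.31-fold for Mthfd2 and 1.43-fold for Chac1. These limits hold for a fit that ignores the number run and includes library 43. Within the shared run, libraries 41 to 43 against WT, the upper limits were 1.12-fold for Ddit3, 1.13-fold for Psat1, 1.19-fold for Atf5 and Asns, 1.24-fold for Atf4, 1.28-fold for Mthfd2 and Sesn2, 1.41-fold for Phgdh and 1.62-fold for Chac1, so that smaller rises are not excluded. These limits include library 43 as well. Its markers went against the label of cord, so neither set of limits bounds a rise in cord alone. With a library left out, the first-run log2 fold changes ran from -0.639 to -0.143 for Psat1, -0.64 to -0.07 for Mthfd2 and -0.173 to 0.153 for Sesn2. For Chac1 they ran from 0.199 to 0.456.

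**Figure D1:**
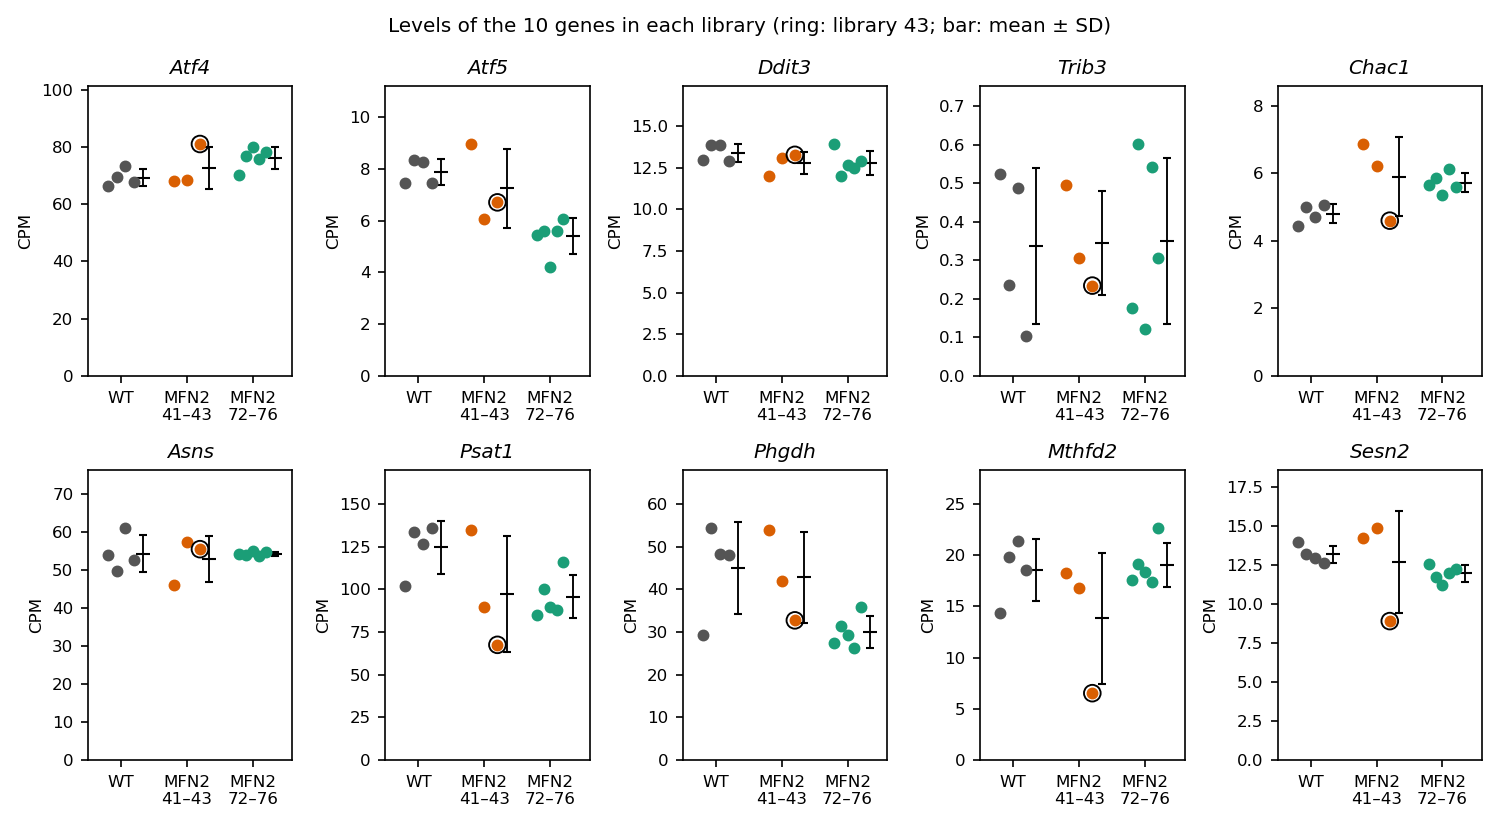
Level in CPM (vertical axes, each from 0) of the 10 genes in the 4 WT libraries, MFN2 libraries 41 to 43 and MFN2 libraries 72 to 76, with 1 point per library, the mean ± SD beside each set and a ring around library 43. Atf5 in libraries 72 to 76 lies below every WT library, Chac1 in the same libraries lies above every WT library, and Mthfd2 and Sesn2 are lowest in library 43.

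Atf4 encodes the central transcription factor of the response (chromosome 15, 80255184 to 80257541, plus strand of GRCm38). Its level was 66.4, 69.4, 73.4 and 67.7 CPM in WT libraries 44 to 47. In MFN2 libraries it was 68.2, 68.5 and 81.0 CPM in 41 to 43 and 70.04, 76.7, 80.0, 75.6 and 78.4 CPM in 72 to 76. The groups overlapped, with 5 of 8 MFN2 libraries above every WT library, library 43 highest of them. The log2 fold change was 0.11 (SE 0.064; 95% interval -0.03 to 0.25; FDR = 0.401), and 0.10 without library 43 (FDR = 0.361).

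Atf5 encodes a related factor of the same bZIP family, which is known for its role in the mitochondrial unfolded protein response (chromosome 7, 44812256 to 44816658, minus strand). It was at 7.46, 8.34, 8.28 and 7.46 CPM in WT libraries. MFN2 libraries 41 to 43 held 8.96, 6.07 and 6.71 CPM, and libraries 72 to 76 held 5.45, 5.61, 4.22, 5.61 and 6.07 CPM. Thus 7 of 8 MFN2 libraries were below every WT library and library 41 was above them all. The log2 fold change was -0.37 (SE 0.157; 95% interval -0.71 to -0.03), and it did not pass the test over all genes (FDR = 0.303). Fitted with the number run as a term, it was -0.12 (FDR = 0.708), and without library 43 it was -0.39 (FDR = 0.186). Exons of Atf5 share 82 bases with Nup62 and Il4i1 on the opposite strand, and the strand setting of the counting is not given in the sources used here, so that its counts of 105 to 235 reads per library are uncertain.

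Ddit3 encodes CHOP, a factor that ATF4 induces under lasting stress (chromosome 10, 127290774 to 127296288, plus strand). It ranged from 12.9 to 13.9 CPM in WT libraries and from 11.99 to 13.9 CPM in MFN2 libraries, with a median of 12.8 CPM in the latter. The ranges overlapped, with 4 of 8 MFN2 libraries below every WT library and 1 above. Between the groups, the log2 fold change was -0.07 (SE 0.065; FDR = 0.608), and -0.08 without library 43 (FDR = 0.536). It shares 68 exonic bases with Mars on the opposite strand, with the same uncertainty.

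Trib3 encodes a pseudokinase that ATF4 and CHOP induce and that dampens the response (chromosome 2, 152337422 to 152344032, minus strand). It was close to the limit of detection, with 2 to 14 reads per library, and did not pass the filter. WT libraries held 0.52, 0.24, 0.49 and 0.10 CPM. MFN2 libraries ran from 0.12 to 0.60 CPM with a median of 0.31 CPM, so that both groups covered nearly the same range, and no test was made.

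Chac1 encodes an enzyme that breaks down glutathione and is a target of ATF4 and CHOP (chromosome 2, 119351229 to 119354381, plus strand). It was at 4.45, 4.99, 4.70 and 5.06 CPM in WT libraries. MFN2 libraries held 6.87, 6.22 and 4.598 CPM in 41 to 43 and 5.67, 5.87, 5.35, 6.12 and 5.61 CPM in 72 to 76. All MFN2 libraries but 43 were above every WT library. Chac1 had a log2 fold change of 0.27 (SE 0.113; 95% interval 0.03 to 0.52; FDR = 0.302), and 0.31 without library 43 (FDR = 0.134). In edgeR's fit over all libraries, Chac1 was the only member with an unadjusted p under 0.05 in the direction of a rise, at 97 to 180 reads per library.

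Asns encodes asparagine synthetase, a classical target of ATF4 (chromosome 6, 7675169 to 7693254, minus strand). WT libraries held 54.0, 49.8, 61.1 and 52.6 CPM. MFN2 libraries ranged from 46.1 to 57.4 CPM with a median of 54.5 CPM, within or just below the WT range. Its log2 fold change was -0.01 (SE 0.069; 95% interval -0.16 to 0.14; FDR = 0.931), and -0.02 without library 43 (FDR = 0.885).

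Phgdh and Psat1 encode the first enzymes of serine synthesis, a pathway that in nervous tissue is known to be most active in astrocytes. Psat1 (chromosome 19, 15904678 to 15947337, minus strand) was at 102, 134, 127 and 136 CPM in WT libraries 44 to 47. MFN2 libraries held 135, 89.8 and 67.5 CPM in 41 to 43 and 84.9, 101, 89.8, 87.7 and 116 CPM in 72 to 76. The groups overlapped, with 6 of 8 MFN2 libraries below every WT library and library 43 lowest. The log2 fold change was -0.37 (SE 0.152; 95% interval -0.70 to -0.04; FDR = 0.300), and -0.31 without library 43 (FDR = 0.195). Under the 10 other settings of the fit it ran from -0.389 to -0.143.

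Phgdh (chromosome 3, 98313170 to 98339990, minus strand) was at 29.4, 54.4, 48.3 and 48.1 CPM in WT libraries. MFN2 libraries held 54.0, 41.9 and 32.7 CPM in 41 to 43 and 27.5, 31.3, 29.3, 26.2 and 36.0 CPM in 72 to 76. WT library 44 was as low as the second run, so that only 3 of 8 MFN2 libraries were below every WT library. The log2 fold change was -0.37 (SE 0.199; 95% interval -0.80 to 0.06; FDR = 0.382), and -0.07 with the number run as a term (FDR = 0.888). Without library 43 it was -0.36 (FDR = 0.349).

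Mthfd2 encodes a mitochondrial enzyme of one-carbon metabolism (chromosome 6, 83305691 to 83325908, minus strand). WT libraries held 14.3, 19.8, 21.4 and 18.5 CPM. MFN2 libraries held 18.3, 16.8 and 6.52 CPM in 41 to 43 and 17.6, 19.2, 18.4, 17.3 and 22.6 CPM in 72 to 76. The groups overlapped, with library 43 below every WT library and library 76 above every one. This gave a log2 fold change of -0.12 (SE 0.234; FDR = 0.820), and 0.0044 without library 43 (FDR = 0.987). Under the 10 other settings of the fit it ran from -0.414 to 0.247.

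Sesn2 encodes Sestrin 2, a stress-induced sensor of leucine that restrains mTORC1 (chromosome 4, 132492032 to 132510501, minus strand). WT libraries ranged from 12.6 to 14.0 CPM. MFN2 libraries held 14.3, 14.9 and 8.91 CPM in 41 to 43 and between 11.2 and 12.6 CPM in 72 to 76. Of the MFN2 libraries 2 were above and 6 below every WT library, library 43 lowest, for a log2 fold change of -0.11 (SE 0.114; FDR = 0.647), and -0.05 without library 43 (FDR = 0.761).

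The 2 runs of library numbers gave different counts of calls. Libraries 41 to 43 against WT, where the run is the same, gave 0 of 9 members in either direction by edgeR's test, beside 0.00658% of 15200 genes, and 0 members at an unadjusted p under 0.05, beside 7.12% of genes. DESeq2 also called 0 members there. Without library 43 the count stayed at 0. Libraries 72 to 76 against the same WT libraries gave 3 of 9 members lower (Atf5, Psat1 and Phgdh) and 0 higher, beside 12.7% of 15743 genes lower and 11.1% higher. The median of the members was -0.07 in this comparison and that of all genes -0.00066. When counts were scaled by library size alone, the share of higher genes among all calls went from 46.6% to 67.7%. The 2 comparisons share the WT libraries.

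In the second run Atf5 fell by 0.55 on the log2 scale (SE 0.117; FDR = 0.00587), with all 5 libraries below every WT library, against -0.11 in libraries 41 to 43 (FDR = 0.799). That first-run value ran from -0.279 to 0.0049 with a library left out. Psat1 fell by 0.38 (SE 0.106; FDR = 0.0253), against -0.34 in libraries 41 to 43 (FDR = 0.637), a value that was -0.14 without library 43 and -0.64 without library 41. Phgdh fell by 0.59 (SE 0.165; FDR = 0.0297), against -0.06 in libraries 41 to 43 (FDR = 0.936). The latter changed sign with a library left out, from -0.246 to 0.1. The calls of Psat1 and Phgdh were lost when any of several single libraries was left out, while their log2 fold changes stayed between -0.47 and -0.34 and between -0.75 and -0.49. With one library left out at a time, the number of members called ranged from 1 to 3. It was 1, Atf5, without WT library 45, 46 or 47 or MFN2 library 74 or 75. Without library 72 Psat1 (FDR = 0.0525) and Phgdh (FDR = 0.0630) missed the threshold too, and without library 73 Phgdh did (FDR = 0.0510). Atf5 had an FDR of at most 0.0230 in all 9 of these fits.

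No member was called higher in the second run by the edgeR test with TMM scaling, but 2 depended on the setting. Atf4 had a log2 fold change of 0.14 (SE 0.050; FDR = 0.0673), and 4 of 5 libraries were above every WT library. It passed in DESeq2 (FDR = 0.0479), with library size alone as the scaling (FDR = 0.00939) and without library 72 (FDR = 0.0360). Chac1 had a log2 fold change of 0.25 (SE 0.106; FDR = 0.102) with all 5 libraries above every WT library, as were those of 9.5% of all genes, and it passed with library size alone (FDR = 0.0415). Library size alone moved the median of all genes by 0.07 and called 17.9% of all genes higher, and DESeq2 called 13.3% higher. Sesn2 was at -0.14 (SE 0.071; FDR = 0.161) with all 5 libraries below WT, as were those of 10.3% of genes. Ddit3, Asns and Mthfd2 lay between -0.07 and 0.04.

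**Figure D2:**
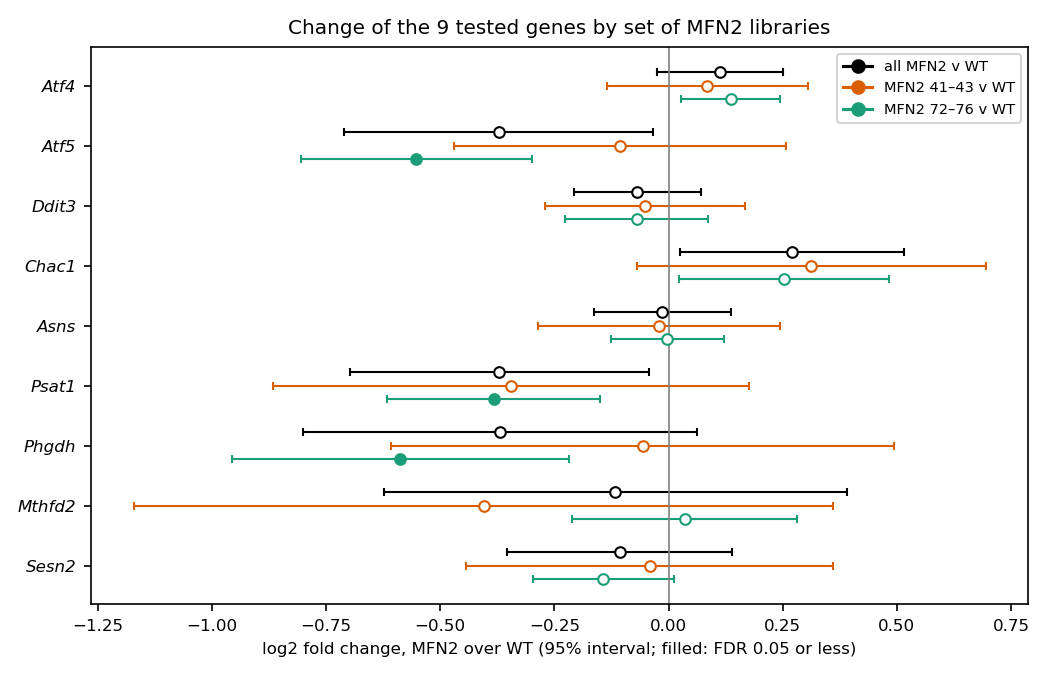
Log2 fold change of MFN2 over WT (horizontal axis) with its 95% interval for the 9 tested genes, for all MFN2 libraries (black), libraries 41 to 43 (orange) and libraries 72 to 76 (green), where filled points have an FDR of 0.05 or less. The filled points are Atf5, Psat1 and Phgdh in libraries 72 to 76, all below 0.

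Within the MFN2 genotype, libraries 72 to 76 against 41 to 43 gave 0 of 9 members past the threshold in edgeR's test, beside 2.19% of 15633 genes, and 2 members at an unadjusted p under 0.05, beside 24.6%. Phgdh was at -0.53 on the log2 scale (SE 0.153; FDR = 0.0959) and Atf5 at -0.45 (SE 0.165; FDR = 0.147). With a library left out, Phgdh ran from -0.686 to -0.323 and Atf5 from -0.567 to -0.254. Without library 43, Phgdh was at -0.69 (FDR = 0.00763), in a fit that called 15.3% of all genes. DESeq2 called 1 member, also Phgdh (FDR = 0.0368), and 11.5% of all genes. Psat1 was at -0.04 (FDR = 0.918), and ran from -0.239 to 0.275 with a library left out.

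Levels of some members, but not of all, moved with markers of astrocytes. The 12 astrocyte markers, of which Slc1a2 was the most abundant and none was at 0, summed to 8761, 9866, 8808 and 9017 CPM in WT libraries. They summed to 10634, 7877 and 6478 CPM in MFN2 libraries 41 to 43 and to 6557, 6814, 6663, 6522 and 8030 CPM in 72 to 76. The 3 libraries with the highest marker sums (41, 45 and 47) were also the 3 highest in Psat1, and library 43 was the lowest in both. Over the 12 libraries, which share runs and tissue, the Pearson correlation with the mean of the markers on the log2 scale was 0.89 for Sesn2, 0.86 for Psat1, 0.75 for Mthfd2, 0.58 for Phgdh, 0.50 for Atf5 and -0.73 for Atf4. It was -0.05 for Ddit3, 0.18 for Chac1 and -0.34 for Asns. Without library 43 the values of the first 6 were 0.71, 0.79, -0.03, 0.81, 0.90 and -0.67 in the same order, and those of the last 3 were 0.11, -0.24 and -0.39. In the second run 8 of the 12 astrocyte markers fell and 0 rose, and 6 of 8 microglia markers fell and 0 rose (edgeR, FDR of 0.05 or less), beside the shares of genes given above. With the mean of the astrocyte markers as a term in the fit of the second run, a check added after the data were seen, the log2 fold change of Psat1 was 0.05, that of Phgdh -0.03 and that of Atf5 -0.38, with 0 members and 1 gene in all past the threshold. In these 9 libraries the marker sums of the groups did not overlap, so that this term and the genotype can hardly be told apart. In bulk tissue, fewer cells of a type and less RNA per cell cannot be told apart either, and the part of the astrocyte markers in these results was not tested.

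**Figure D3:**
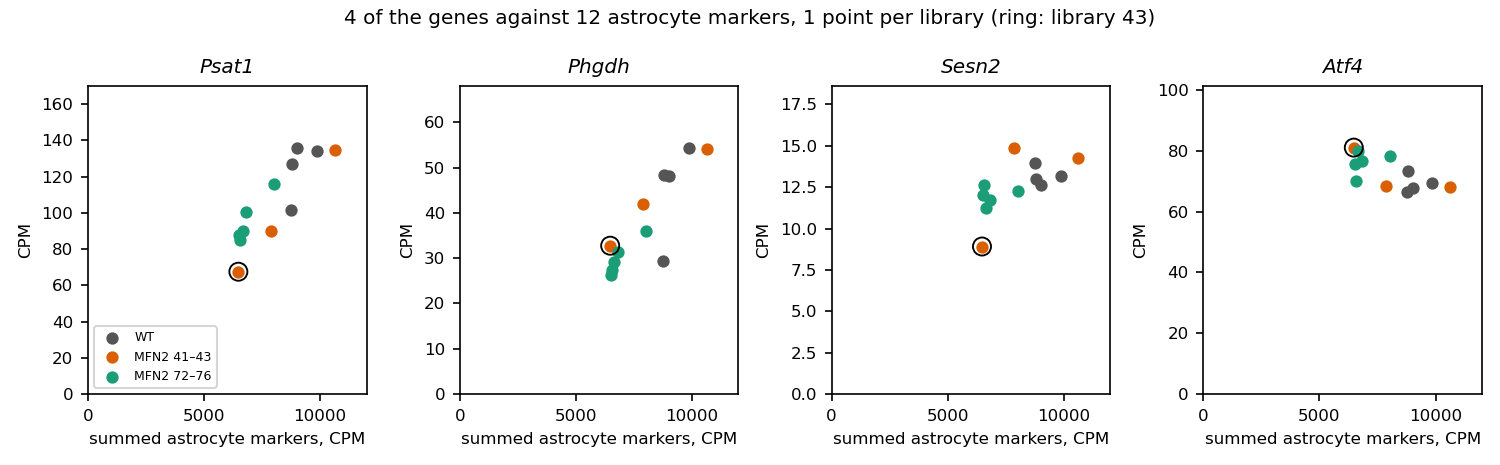
Level of Psat1, Phgdh, Sesn2 and Atf4 in CPM (vertical axes) against the sum of 12 astrocyte markers in CPM (horizontal axes), with 1 point per library coloured by WT (grey), MFN2 41 to 43 (orange) and MFN2 72 to 76 (green), and a ring around library 43. Psat1 is lowest in library 43, at 67.5 CPM and a marker sum of 6478 CPM, and Atf4 is highest there, at 81.0 CPM.

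The members did not move as a block over the 12 libraries. Of the 36 pairs of tested members, 17 had a Pearson correlation above 0, computed on log2 CPM and given as a description of libraries that share runs and tissue. The highest values were those of Phgdh with Psat1 and with Atf5, both 0.77, and they were 0.86 and 0.78 without library 43. The lowest was that of Atf4 with Sesn2, -0.82 with and without library 43. The correlation of Mthfd2 with Sesn2 was 0.65 and became -0.38 without library 43. The genes most like the mean of the 9 members, each put on a common scale, were Macrod1, Tnfrsf21, Hmox2, Rps6 and Dnaja3, with correlations of 0.922 to 0.929, taken as the 5 highest among 15933 genes. That mean was lowest in library 43 and highest in WT library 46.

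The wider pathway was read in 7 further lists of 100 genes. Over all libraries and in libraries 41 to 43 against WT, 0 genes of any of these lists reached an FDR of 0.05 in edgeR's test. Over all libraries, 1 gene of the lists was higher at an unadjusted p under 0.05, in the list of sensors, and 5 of 16 endoplasmic reticulum chaperones and other genes of the unfolded protein response and 3 of 12 mitochondrial chaperones and proteases were lower, as were 2 sensors, 2 tRNA synthetases and 1 transporter, where 7.4% of all genes were higher and 7.57% lower. Without library 43, Eif2s2, Ppp1r15a, Impact, Slc7a5 and Eprs were higher at that unadjusted p over all libraries. Lower at that p were Eif2ak3, Dnajc3, Slc6a9, Slc38a1, Nars, Wars, Hspa5, Pdia6, Sdf2l1, Creld2, Manf, Hspe1, Clpp and Htra2. At an FDR of 0.05, 0 genes of the 7 lists passed in either of these comparisons without library 43. The values below are therefore those of libraries 72 to 76 against WT, where number run and genotype cannot be told apart.

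Among the sensors and parts of the eIF2 machinery, 6 of 18 rose and 1 fell, where 11.1% of all genes rose and 12.7% fell. Eif2s2, a subunit of eIF2, was at 71.2 ± 3.65 CPM (SD, n = 5) against 53.9 ± 0.840 CPM (SD, n = 4) in WT, a log2 fold change of 0.40 (FDR = 0.000394). Eif2ak4, the kinase that senses uncharged tRNA, rose by 0.30 (FDR = 0.00219), and Eif2b4, a subunit of the exchange factor of eIF2, by 0.30 (FDR = 0.00266). Ppp1r15a, which encodes the feedback phosphatase subunit GADD34 and was singled out after its values were seen, rose by 0.43 (FDR = 0.0129). Dnajc3, an inhibitor of eIF2 kinases in the endoplasmic reticulum, fell by 0.27 (FDR = 0.00376). In libraries 41 to 43 the log2 fold changes of Eif2s2, Eif2ak4 and Eif2b4 were -0.09, -0.08 and -0.09. Ppp1r15a was at 0.09 there (FDR = 0.776) and Dnajc3 at -0.20 (FDR = 0.659), and without library 43 at 0.06 (FDR = 0.973) and -0.03 (FDR = 0.978). Between the MFN2 libraries of the second and the first run, Eif2s2, Eif2ak4 and Eif2b4 differed by 0.48 (FDR = 0.0284), 0.38 (FDR = 0.0404) and 0.38 (FDR = 0.0346). Without library 43 the differences were 0.41 (FDR = 0.00443), 0.43 (FDR = 0.00281) and 0.43 (FDR = 0.00337). Ppp1r15a was at 0.33 (FDR = 0.134) between the runs and Dnajc3 at -0.07 (FDR = 0.781), and without library 43 at 0.36 (FDR = 0.0759) and -0.23 (FDR = 0.0593).

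Among the bZIP partners and stress hormones, 1 of 9 tested genes fell and 0 rose, beside 12.7% and 11.1% of all genes. Vldlr, a lipoprotein receptor known as a target of ATF4, was at 99.0 ± 7.77 against 113 ± 7.22 CPM, a log2 fold change of -0.19 (FDR = 0.0485). The stress hormones were at the limit of detection. Fgf21 had 0 reads in all 4 WT libraries and 3 MFN2 libraries of the first run, and 0, 2, 5, 0 and 1 reads in libraries 72 to 76, where a count of 0 allows up to 3 reads, or 0.114 to 0.157 CPM. Gdf15 had 0 to 4 reads in every library. Neither was tested. No library was above 0.201 CPM for Fgf21 or 0.153 CPM for Gdf15, and small differences at such levels were not detectable at this depth.

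Among the serine, one-carbon and proline enzymes beside the members, 1 of 18 rose and 2 fell, at or below the shares of 11.1% and 12.7% among all genes. Mthfd1l, which makes formate in mitochondria, rose by 0.21 (FDR = 0.0440). Aldh1l1, a folate enzyme that is also a common marker of astrocytes, fell by 0.30 (FDR = 0.0117), and Cbs, the first enzyme of transsulfuration, fell by 0.30 (FDR = 0.0143). Most of the list, 15 of 18, did not pass the test. Without library 43, Mthfd1l, Aldh1l1 and Cbs were at -0.02, 0.03 and 0.03 in the first run. Between the MFN2 runs they were then at 0.225 (FDR = 0.076), -0.33 (FDR = 0.0101) and -0.33 (FDR = 0.076).

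Among 11 amino acid transporters 1 rose and 3 fell, beside 11.1% and 12.7% of all genes. Slc7a5, the large neutral amino acid transporter, was at 67.6 ± 3.33 against 55.2 ± 4.25 CPM (log2 fold change 0.29; FDR = 0.00495). Slc6a9, a glycine transporter, was at 150 ± 13.1 against 196 ± 11.1 CPM (-0.39; FDR = 0.00178). The transporter of neutral amino acids Slc38a1 fell by 0.25 (FDR = 0.0262) and the cystine transporter Slc7a11 by 0.46 (FDR = 0.0391). Slc7a11 pointed the other way in libraries 41 to 43, at 0.90 (FDR = 0.622), and at 0.28 without library 43 (FDR = 0.939). Between the MFN2 runs it was at -1.37 (FDR = 0.0724), and at -0.74 without library 43 (FDR = 0.0277). Without library 43, Slc7a5, Slc6a9 and Slc38a1 were at -0.002, -0.04 and -0.03 in the first run. Between the MFN2 runs they were then at 0.30 (FDR = 0.0262), -0.35 (FDR = 0.0157) and -0.22 (FDR = 0.0597).

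Of 12 cytosolic tRNA synthetases, which ATF4 is known to induce, 2 rose and 1 fell, near the 11.1% and 12.7% of all genes. Eprs rose by 0.19 on the log2 scale (FDR = 0.0114) and Cars by 0.18 (FDR = 0.0352), while Nars fell by 0.23 (FDR = 0.0153). The changes of this list were all small. Without library 43, Eprs, Cars and Nars were at -0.008, -0.06 and -0.07 in the first run. Between the MFN2 runs they were then at 0.195 (FDR = 0.0293), 0.25 (FDR = 0.053) and -0.16 (FDR = 0.121).

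Genes of the other branches of the unfolded protein response were mostly chaperones of the endoplasmic reticulum, with the transcription factors Xbp1 and Atf6 and the degradation factors Edem1 and Sel1l. The calls in this list went one way, with 8 of 16 lower and 0 higher, beside 12.7% and 11.1% of all genes. Sdf2l1 was at 6.59 ± 0.864 against 10.4 ± 1.43 CPM (log2 fold change -0.67; FDR = 0.00255), and Creld2 at 10.7 ± 1.603 against 16.2 ± 1.31 CPM (-0.61; FDR = 0.00244). Pdia6, a disulfide isomerase, fell by 0.30 (FDR = 0.00233). The median of the list was -0.21, beside -0.00066 for all genes.

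The mitochondrial chaperones and proteases, which respond to unfolded protein in the organelle, held 1 rise and 2 falls among 12, near the 11.1% and 12.7% of all genes. Hspe1, the co-chaperonin, was at 45.3 ± 0.535 against 59.2 ± 4.76 CPM (log2 fold change -0.39; FDR = 0.000739), and the protease subunit Clpp fell by 0.28 (FDR = 0.00765). Hspa9, the mitochondrial Hsp70, rose by 0.19 (FDR = 0.0147). The median of the list was -0.02. Without library 43, Hspe1, Clpp and Hspa9 were at -0.12, -0.07 and -0.009 in the first run. Between the MFN2 runs they were then at -0.265 (FDR = 0.0188), -0.21 (FDR = 0.107) and 0.20 (FDR = 0.0447).

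**Figure D4:**
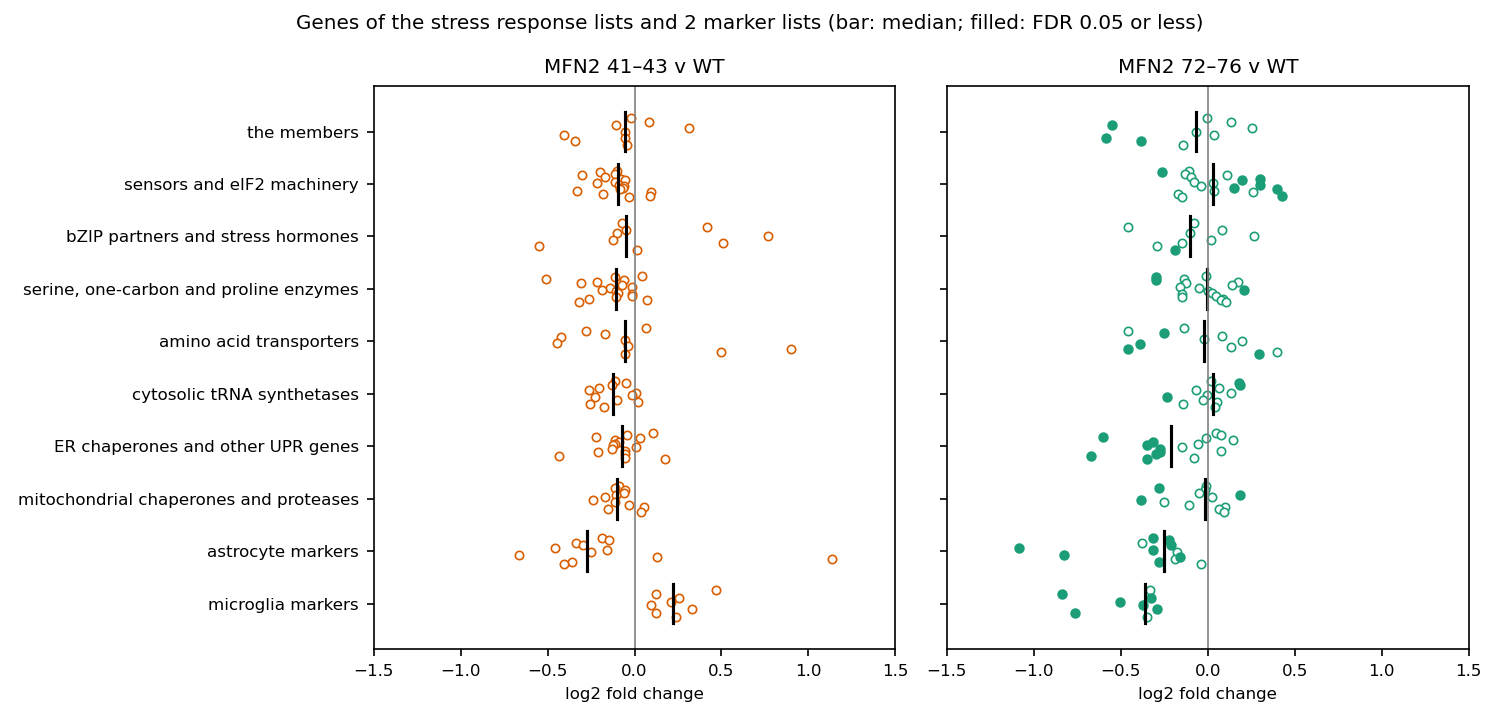
Log2 fold change over WT (horizontal axes) of each tested gene in the members, the 7 pathway lists and the astrocyte and microglia markers, for MFN2 libraries 41 to 43 (left) and 72 to 76 (right), where bars mark each list's median and filled points have an FDR of 0.05 or less. The left panel holds 0 filled points, and in the right panel the filled points of the endoplasmic reticulum list lie below 0, with a list median of -0.21.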

How the data were processed

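Whole-number counts per Ensembl gene, deposited by the authors without normalization, were used for 12 libraries, 1 per mouse. By the study's methods reads were trimmed of adapters and aligned to GRCm38 with STAR. The counting tool, its strand setting and the annotation release are not given in the sources used here. The methods head the section as 3′-mRNA sequencing but name a stranded kit for total RNA and paired-end reads, while the labels name an mRNA-Seq kit. RPKM, which divides by the exon length in GENCODE M21, thus assumes whole transcripts. Symbols and coordinates came from GENCODE M21 on GRCm38.

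Genes above 1 CPM in at least 3 libraries of a fit were kept, scaled by TMM and compared by edgeR 4.0.16 under R 4.3.3 (quasi-likelihood test in its legacy form, robust, two-sided, Benjamini-Hochberg over all genes tested, FDR of 0.05), after tests on simulated data. Standard errors were derived from the F statistic, and log2 CPM used a prior count of 2. Depth was 19359454 to 26738930 counts per library, so that genes near 1 CPM rest on few reads.

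The members, the 7 pathway lists and the 13 marker lists were chosen with earlier results of these data known, and 2 of the marker lists are not reported here. Text names the members, Mfn2, Eno2, list genes past the threshold over all libraries or in the first run, at most the 3 with the lowest p per list and direction in the second run, the most abundant gene of a marker list, and the 5 genes most like the members. Fgf21, Gdf15, Ppp1r15a, Xbp1, Atf6, Edem1 and Sel1l fall outside this rule, as do Impact, Eif2ak3, Wars, Hspa5, Manf and Htra2. So do the overlapping genes Nup62, Il4i1 and Mars, and Hspa1a, the near-identical copy of Hspa1b. Alternatives were other filters and scalings, DESeq2 1.42.0, limma 3.58.1, covariates and each library left out. The astrocyte mean within a run, and list values without library 43, were added after the data were seen. Where nothing says otherwise, p-values measure the spread between these mice. Mice treated with vectors and human cells of the study were not analysed here.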

Additional observations from a re-analysis of the deposited data

Results flagged for a closer look

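In 20 groups of values (10 members in 2 genotypes), the gap of the highest or lowest library to its neighbour was set against the range of the group, and 2 groups passed Dixon's 95% limit, where chance gives about 1 in 20. For Asns, MFN2 library 41 was the lowest at 46.1 CPM, with a gap of 0.678 of the range. For Mthfd2, MFN2 library 43 was the lowest at 6.52 CPM, with a gap of 0.636 of the range. Library 43 was also the one with forebrain markers at 4685 CPM and caudal Hox genes at 40.9 CPM.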

How the results depend on the processing

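No paired analysis was possible because MFN2 and WT libraries have no replicate number in common. Over all libraries, 0 members passed under every alternative run. The count of all genes, 0, became 200 with DESeq2, 17 with the forebrain mean as a covariate and 0 to 19 with a library left out (19 without library 43, 7 without 41, 1 without 76). In libraries 41 to 43 against WT, 1 gene became 0 without a filter, 5 with DESeq2, 2 with the astrocyte mean and 0 to 2 with a library left out, and 0 members passed throughout. In libraries 72 to 76 against WT, 3 members became 5 with library size alone (Atf4 and Chac1 higher), 0 with the astrocyte mean and 1 to 3 with a library left out. Atf4 was called higher with DESeq2 too. All genes there, 3746, became 4252 with DESeq2, 1 with the astrocyte mean and 2350 to 4517 with a library left out (2350 without WT library 45). Without a filter Phgdh missed the threshold (FDR = 0.0981). Within the MFN2 genotype, 342 genes became 1795 with DESeq2 and 31 to 2375 with a library left out (2375 without library 43), and 0 members became 1 with DESeq2 and 0 to 1 with a library left out. There the share of higher genes among calls went from 45.9% to 72.8% with library size alone.

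Some values changed sign, among them that of Psat1 in the second run, a call. Over all libraries, log2 fold changes turned for Asns with library size alone (0.037) and with a library left out (-0.054 to 0.047), for Mthfd2 with the astrocyte mean (0.247), the forebrain mean (0.061) and a library left out (-0.222 to 0.0044), and for Sesn2 with the astrocyte mean (0.088). In the first run they turned with the astrocyte mean for Atf4 (-0.0066), Phgdh (0.088) and Sesn2 (0.129), and with a library left out for Asns (-0.082 to 0.079), Atf4 (-0.0092 to 0.136), Atf5 (-0.279 to 0.0049), Phgdh (-0.246 to 0.100) and Sesn2 (-0.173 to 0.153). In the second run they turned for Asns with DESeq2 size factors (0.0026), library size alone (0.068) and DESeq2 (0.0023), for Ddit3 with library size alone (0.0020) and the astrocyte mean (0.0023), for Psat1 with the astrocyte mean (0.051), and with a library left out for Asns (-0.043 to 0.056) and Mthfd2 (-0.072 to 0.110). Between the MFN2 runs they turned with library size alone for Ddit3 (0.051), Chac1 (0.0043) and Psat1 (0.026), and with a library left out for Asns (-0.063 to 0.065), Atf4 (-0.003 to 0.147), Chac1 (-0.203 to 0.069), Ddit3 (-0.058 to 0.020), Psat1 (-0.239 to 0.275) and Sesn2 (-0.294 to 0.022). With library size alone the median of all genes moved by 0.07 in the second run and between the MFN2 runs, and by 0.05 over all libraries. For the other changes of sign the cause was not tested. The median of all genes moved by over 0.1 in 1 setting, to 0.11 without a filter between the MFN2 runs. Low counts limit Trib3, Fgf21 and Gdf15.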

Other observations

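The 5 skeletal muscle markers, led by Myh4, a fast myosin, summed to 211 CPM in WT library 47 and 205 CPM in library 73, and to 2.03 to 37.7 CPM elsewhere. Atf5, Psat1 and Phgdh in library 73 were at 5.61, 101 and 31.3 CPM, within the range of the other second-run libraries. The 7 immediate early genes, led by Arc, summed to 274 CPM in library 43 and to 65.9 to 81.5 CPM elsewhere, and the 5 blood markers, led by Hbb-bs, to 333 CPM in library 73 and to 68.1 to 202 CPM elsewhere.

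In libraries 72 to 76 against WT, 0 of 7 motor neuron markers, led by Nefh, passed an FDR of 0.05 in edgeR's test, with 1 at an unadjusted p under 0.05. Of 8 general neuron markers, led by Snap25, 1 rose and 2 fell, and of 6 endothelial markers, led by Flt1, 1 fell. Of the 5 heat shock genes, led by Hsph1, 2 fell and 0 rose. Among all genes, 11.1% rose and 12.7% fell. Hspa1b, an inducible Hsp70 named after its values were seen, was at 1.204 ± 0.231 CPM (SD, n = 5) against 5.404 ± 2.22 CPM (SD, n = 4) in WT, a log2 fold change of -2.17 (FDR = 0.000414), and -0.37 in libraries 41 to 43 (FDR = 0.726; -0.55 without library 43). Its counts are uncertain because Hspa1a is a near-identical copy.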
